A study of Mus musculus with 2 samples.

Results

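Potassium channel genes were examined in adult mouse lung. They were taken as all protein-coding genes whose GENCODE symbol starts with Kcn and which stood in both gene tables. The rule found 94 genes among 43346 gene identifiers, of which 21474 were protein-coding, and it used no measured value. A further 5 genes with such symbols are annotated as antisense RNAs and were left out. The study sequenced polyadenylated RNA longer than 200 nt from lung of C57BL/6J mice, an inbred strain, at 8 weeks of age. It holds 2 libraries of 1 group, with no treatment or genotype named, and each library pooled tissue of male and female littermates. The labels call them biological replicates, tie both to the same donor record and do not state how many animals were used, so part of their spread may be technical. With 1 group there is no comparison between conditions and no p-value, and every difference below is between these 2 libraries only.

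Potassium channels are membrane proteins that let potassium leave or enter the cell along its gradient and so set the resting membrane potential. In the lung they are known for 2 settings: in the smooth muscle of pulmonary arteries and airways they restrain contraction, and in airway and alveolar epithelium they supply the electrical driving force for chloride and fluid transport. Voltage-gated channels open on depolarization, and calcium-activated channels open when intracellular calcium rises. Inward rectifiers pass potassium into the cell more readily than out of it, and two-pore domain channels carry background leak. The symbol rule also takes in genes that form no channel alone. Auxiliary subunits (Kcnab, Kcne, Kcnip, Kcnmb and Kcnrg) form no pore but change the gating or trafficking of a pore. Silent modulators (Kcnf, Kcng, Kcns and Kcnv) join other voltage-gated subunits.

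The feature that unites the pores is the selectivity filter, a short stretch of protein that strips water from potassium ions. Its codons were searched in frame, on the coding strand only, in the longest complete coding sequence of each gene, as ACNNNNGGN followed by TAN, TTN or CTN and then GGN. In words, this is a threonine codon, any codon, a glycine codon, an aromatic or leucine codon, and a glycine codon. Of the 94 members, 66 held this form, against 2.00% of all protein-coding genes with a complete coding sequence. When a serine codon was also allowed at the first place, a form chosen after seeing the data, 77 members held it, against 5.45% of all protein-coding genes. The auxiliary group held none in 17 genes, and every gene of the pore-forming and silent groups held at least 1 copy of the wider form. All 14 two-pore domain genes held 2 copies, as each subunit carries 2 pore loops. Among the other members with the wider form 61 held 1 copy, and Kcnh2 and Kcna6 each held a further match elsewhere in the coding sequence.

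The runs below are shown because they set the pores of the leading genes side by side. They come from GENCODE M21 transcripts on GRCm38, with the filter codons in capitals and 15 bases on either side in lower case.
Kcnk3, first copy: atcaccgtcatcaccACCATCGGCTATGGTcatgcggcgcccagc
Kcnk3, second copy: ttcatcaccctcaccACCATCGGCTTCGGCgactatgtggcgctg
Kcnk2, first copy: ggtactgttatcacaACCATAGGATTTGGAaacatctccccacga
Kcnk2, second copy: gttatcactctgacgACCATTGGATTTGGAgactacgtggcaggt
Kcnq1: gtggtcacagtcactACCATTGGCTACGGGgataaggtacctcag
Kcna3: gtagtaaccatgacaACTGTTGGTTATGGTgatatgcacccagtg
Kcnh2, second match: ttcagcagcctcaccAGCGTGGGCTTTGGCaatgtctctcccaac
Kcnj15: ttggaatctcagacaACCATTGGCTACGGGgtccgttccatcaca
Kcnj13: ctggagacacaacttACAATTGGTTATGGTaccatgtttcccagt
Kcnj8: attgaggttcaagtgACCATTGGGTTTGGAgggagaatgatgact
Kcnn4: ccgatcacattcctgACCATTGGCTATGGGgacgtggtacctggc
Kcnma1: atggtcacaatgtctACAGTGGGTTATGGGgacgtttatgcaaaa
The capitals of Kcnq1 lie at chr7:143191432-143191446 on the plus strand, in exon 7 of Kcnq1-201. The filter of Kcnh2, at chr5:24325555-24325569 on the minus strand in exon 7 of Kcnh2-201, opens with a serine codon, as does the filter of Kcnn3. The first copy of Kcnk3 is cut by an intron, and its 15 bases stretch from exon 1 to exon 2 of Kcnk3-201, chr5:30588593-30621898 on the plus strand. Its second copy is whole, at chr5:30622202-30622216 in exon 2. Such a cut in the first copy was found in all 14 two-pore domain genes. In the voltage-gated group it was found in the 3 Kcnd genes, Kcnd1, Kcnd2 and Kcnd3, and in no gene of the inward rectifier, silent or calcium- and sodium-activated groups.

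Replicate 1 held 48234745 expected counts on genes and replicate 2 held 44182836. Levels are given in TPM (a level per transcript length, scaled to a fixed library total), first in replicate 1 and then in replicate 2 unless an SD is given. Sums over markers of alveolar type 2 cells and endothelium were at like levels. They were 30640 and 31802 TPM for 7 alveolar type 2 genes and 3424 and 3466 TPM for 7 endothelial genes. Most of the alveolar type 2 sum was Sftpc, at 22806 and 22331 TPM. Single epithelial genes lay further apart, with Akap5 of alveolar type 1 cells at 64.0 and 29.3 TPM and Aqp5 at 365 and 517 TPM. Markers of other tissues differed. All 8 skeletal muscle genes and all 7 genes of basal and squamous epithelium were at least 2-fold higher in replicate 1, with sums of 2865 against 60.5 TPM and of 3676 against 2.10 TPM. In replicate 2 Myh4, Myh8, Tnnc2, Krtdap and Krt6a stood at 0. All 4 brown adipocyte genes were also at least 2-fold higher in replicate 1, with sums of 231 and 21.1 TPM. All 5 erythroid, all 4 white adipocyte and all 6 intestine and pancreas genes were at least 2-fold higher in replicate 2, with sums of 22915 and 63391, of 98.9 and 251, and of 3.76 and 213 TPM. Smooth muscle genes summed to 1212 and 828 TPM, and none of the 7 was 2-fold apart. In bulk tissue, fewer cells of a type and less RNA per cell cannot be told apart, for any value below.

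Potassium channel genes as a whole were expressed at low levels. A gene was called detected if neither library was below 1 TPM. This held for 43 of the 94 members, or 45.7%, beside 60.5% of all protein-coding genes. Another 4 members reached 1 TPM in replicate 1 only and 2 in replicate 2 only, and 45 stayed below it in both. The median log2(TPM + 1) over all 94 was 0.98 ± 0.09 (SD, n = 2), and over all protein-coding genes it was 2.34 ± 0.24. Together the members took 361 and 398 TPM, which is 0.0387% ± 0.00242 of the TPM on gene rows (n = 2). The 5 highest genes held 40.6% of the members' TPM, and the 20 highest held 80.3%.

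**Figure D1:**
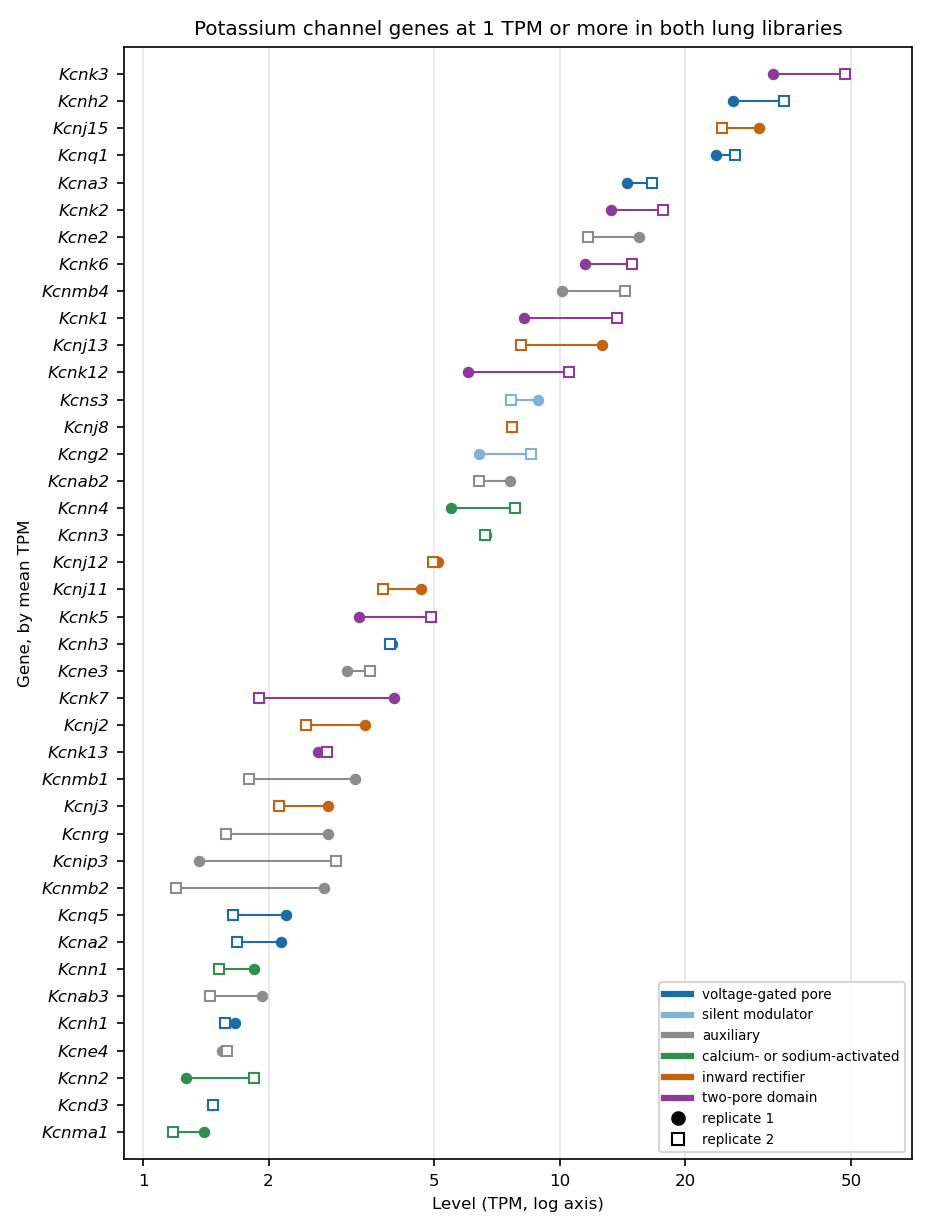
Level in TPM (log axis) of 40 of the 43 detected potassium channel genes, one row per gene in order of mean TPM, with replicate 1 as filled circles and replicate 2 as open squares, coloured by function group. Kcnk3 leads at 32.5 and 48.4 TPM, and Kcnma1 closes the list at 1.40 and 1.18 TPM.

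By function, voltage-gated pores held the largest share of the members' TPM, 34.9% ± 0.924 (n = 2), and two-pore domain channels held 25.7% ± 4.51. Inward rectifiers held 16.4% ± 3.63 and auxiliary subunits 13.4% ± 1.58. Calcium- or sodium-activated channels, at 4.85% ± 0.133, and silent modulators, at 4.74% ± 0.357, were the smallest groups. Relative to the number of genes the order was another one. Detected members made up 5 of 8 calcium- or sodium-activated channels, 10 of 17 auxiliary subunits and 8 of 14 two-pore domain channels. They made up 7 of 15 inward rectifiers, 11 of 30 voltage-gated pores and 2 of 10 silent modulators.

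**Figure D2:**
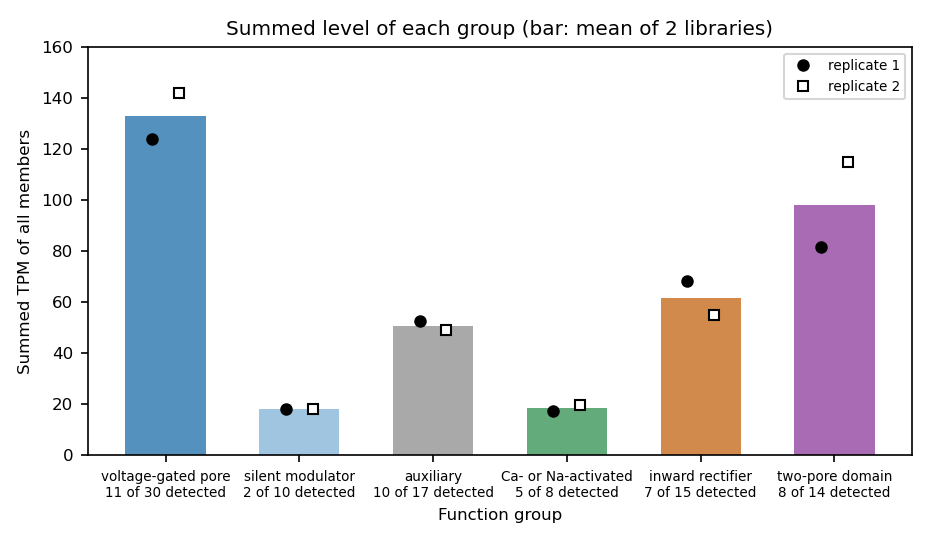
Summed TPM of all members of each function group, with the mean of 2 libraries as a bar and each library as a point. Voltage-gated pores sum to 124 and 142 TPM, two-pore domain channels to 81.4 and 115, inward rectifiers to 68.4 and 54.9.

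Among the voltage-gated pores, Kcnh2, Kcnq1 and Kcna3 were each the highest gene of their own subfamily. Kcnh2, which encodes the ERG channel of cardiac repolarization, stood at 26.1 and 34.5 TPM, and Kcnq1, a channel of heart and epithelia that assembles with Kcne subunits, at 23.7 and 26.3 TPM. Both were higher in replicate 2, and their ranges overlapped. The Kv1 channel gene Kcna3, best known from T cells, followed at 14.5 and 16.6 TPM, below both values of Kcnq1. The summed TPM of 5 T cell markers was 17.1 and 11.2, in the opposite direction, and the part of T cells in the Kcna3 level was not tested.

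Further detected voltage-gated genes stood lower. Kcnh3, Kcnq5, Kcna2, Kcnh1 and Kcnd3 lay between 1.46 and 3.95 TPM in both libraries. Kcnd3, at 1.46 and 1.47 TPM, was the leading gene of the Kcnd subfamily of A-type channels, and Kcnd1 was just under the threshold at 0.75 and 0.97 TPM. Kcna5, which encodes the Kv1.5 channel known from pulmonary artery smooth muscle, was at 1.29 and 0.97 TPM. It reached 1 TPM in replicate 1 only, like Kcna7 and Kcnc4, and Kcnh4 did so in replicate 2 only. Genes that stayed below 1 TPM in both included Kcna1, Kcna4, Kcna6, Kcna10, Kcnb2, Kcnc1, Kcnc2, Kcnd1, Kcnd2, Kcnh5, Kcnh6, Kcnh7, Kcnh8 and Kcnq3. Kcnq3, a neuronal channel gene, had 6 and 1 counts.

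Of the silent modulators, Kcns3 and Kcng2 were detected. Kcns3, known from pulmonary artery smooth muscle, was at 8.88 and 7.62 TPM. Kcng2 was at 6.41 and 8.52 TPM. Its TPM rests in large part on a short transcript, Kcng2-202 of 279 nt, which carried 55.4% and 62.0% of the gene's TPM on 9 and 13 expected counts. The full-length Kcng2-201, the only transcript of the gene found to carry the filter codons, had 269 and 297 expected counts. Kcnf1 (0.93 and 0.79 TPM), Kcng1, Kcng3, Kcng4, Kcns1, Kcns2, Kcnv1 and Kcnv2 were below 1 TPM in both libraries.

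Auxiliary subunits were unevenly represented within their own subfamilies. Kcne2, a small single-pass subunit that pairs with Kcnq1 and Kcnh2, was at 15.5 and 11.7 TPM. Kcne1, its neighbour on chromosome 16 and the classic cardiac partner of Kcnq1, was at 0.14 and 0.07 TPM with 2 counts and 1 count. Kcne3 stood at 3.09 and 3.51 TPM and Kcne4 at 1.55 and 1.59 TPM. Among Kcne genes the level of Kcne2 was thus above all others in both libraries, and Kcne1l, at 0.12 and 0.30 TPM, was again under the threshold.

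Of the 4 beta subunits of the large-conductance calcium-activated channel, 3 had a higher TPM than the pore itself. Kcnmb4 was at 10.1 and 14.3 TPM and Kcnmb1, the smooth muscle subunit, at 3.22 and 1.80 TPM. Kcnmb2 was at 2.72 and 1.20 TPM, and Kcnmb3 had 2 and 4 counts. The pore gene Kcnma1 was at 1.40 and 1.18 TPM, below Kcnmb4, Kcnmb1 and Kcnmb2 in each library. For Kcnmb2 this rests on a short transcript, Kcnmb2-206 of 338 nt, which carried 48.6% and 24.2% of its TPM on 6.2 and 1.3 expected counts. Lrrc26, which encodes a gamma subunit of this channel and is not among the 94, was at 46.8 and 55.4 TPM. The other gamma subunit genes, Lrrc38, Lrrc52 and Lrrc55, stayed below 1 TPM.

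The cytoplasmic auxiliary subunits showed 1 leading gene each. Kcnab2, a beta subunit of Kv1 channels with an aldo-keto reductase fold, was at 7.59 and 6.39 TPM, Kcnab3 at 1.93 and 1.45 TPM and Kcnab1 at 0.93 and 0.59 TPM. Kcnip3, a calcium sensor that binds Kv4 channels, was at 1.36 and 2.90 TPM, and Kcnip2 at 0.99 and 1.27 TPM. Kcnip1 and Kcnip4 were lower, and Kcnrg, a regulator of Kv1 assembly, was at 2.78 and 1.58 TPM. Of the Kv4 partners outside the symbol rule, Dpp6 was at 0.350 and 0.450 TPM and Dpp10 at 0 in both.

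Among calcium- and sodium-activated pores, all 4 Kcnn genes were detected. Kcnn4, the intermediate-conductance channel of epithelia and blood cells, was at 5.49 and 7.82 TPM, and Kcnn3, a small-conductance channel of endothelium, at 6.65 and 6.61 TPM. Their ranges overlapped, so their order cannot be fixed. Kcnn1 was at 1.85 and 1.52 TPM and Kcnn2 at 1.27 and 1.85 TPM. The sodium-activated genes Kcnt1 and Kcnt2 and the sperm channel gene Kcnu1 were at or below 0.41 TPM in both libraries.

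Inward rectifiers were led by Kcnj15, which encodes Kir4.2 (chromosome 16), at 30.1 and 24.5 TPM. Kcnj13, which encodes the epithelial Kir7.1, was at 12.6 and 8.08 TPM, higher in replicate 1. On the opposite strand its exons share 623 bases with Gigyf2, a gene at 26.9 and 18.7 TPM. Kcnj8, the Kir6.1 pore of the vascular ATP-sensitive channel, stood at 7.70 and 7.68 TPM, and Kcnj11, its Kir6.2 counterpart, at 4.65 and 3.77 TPM. Their regulatory subunits, which fall outside the symbol rule, were lower, with Abcc9 at 3.93 and 2.17 TPM and Abcc8 at 0.780 and 0.860 TPM. Kcnj12, of the strong rectifiers, was at 5.10 and 4.95 TPM and Kcnj2, of the same kind, at 3.40 and 2.46 TPM. Kcnj3, a G protein-gated subunit, was at 2.78 and 2.12 TPM, and its partner Kcnj5 crossed the threshold in replicate 1 only, at 1.40 and 0.69 TPM. Kcnj4, Kcnj6, Kcnj9, Kcnj10, Kcnj14, Kcnj1 and Kcnj16 were below it in both.

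Two-pore domain channels held the highest single value. Kcnk3, which encodes the acid-sensitive TASK-1 channel of pulmonary artery smooth muscle (chromosome 5, 30588170 to 30625271, plus strand), was at 32.5 and 48.4 TPM. It was the highest member in both libraries. Kcnk2, which encodes the stretch-sensitive TREK-1, was at 13.3 and 17.7 TPM, Kcnk6, of the TWIK type, at 11.5 and 14.9 TPM and Kcnk1, which encodes TWIK-1, at 8.19 and 13.7 TPM. Kcnk12 was at 6.03 and 10.5 TPM, Kcnk5, an acid-sensitive epithelial channel, at 3.29 and 4.90 TPM and Kcnk13 at 2.63 and 2.76 TPM. In all 7 of these genes the second library had the higher TPM, whereas Kcnk7, at 4.00 and 1.90 TPM, was higher in the first. The remaining 6 two-pore domain genes were near 0, with no more than 6 counts in either library: Kcnk4, Kcnk9, Kcnk10, Kcnk15, Kcnk16 and Kcnk18.

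The order of the leading genes was only partly fixed by these libraries. Of the 19 neighbouring pairs among the 20 highest members, 17 had overlapping ranges. Kcnq1 above Kcna3 was among the exceptions. At the other end, 8 members had no count in either library: Kcna10, Kcnh5, Kcnh7, Kcnj1, Kcnj16, Kcnk9, Kcnk15 and Kcnk18. A count of 0 allows up to 3 counts, or 0.0594 CPM in replicate 1 and 0.0711 CPM in replicate 2, for counting error only.

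Other genes of the potassium pathway were taken from a list of 27 that hold partners of these channels, related channels, sodium pump subunits and potassium-chloride transporters. Of these, 18 were detected. Atp1b1, which encodes a beta subunit of the sodium pump, was at 107 and 160 TPM, above each of the 94 channel genes in both libraries. Slc12a2, the sodium-potassium-chloride transporter of epithelia, was at 17.5 and 12.9 TPM. Tmem175, a lysosomal potassium channel gene, was at 38.9 and 26.6 TPM. Tmem38a, a channel gene of the sarcoplasmic reticulum known from striated muscle, was at 54.1 and 18.6 TPM, higher in replicate 1. It was the only gene of the list with a mean count of at least 50 that was 2-fold apart.

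The libraries were next compared gene by gene, on the log2 ratio of replicate 2 over replicate 1 of CPM values (counts scaled to a common library total, with TMM factors). Genes needed a mean count of at least 50, which 55 of the 94 members had. That is 58.5% of members, beside 64.8% of protein-coding genes. Of these 55, 5 were at least 2-fold apart, or 9.09%, beside 6.66% of all genes with that count. Of these, 3 stood higher in replicate 1 (background 4.45%) and 2 in replicate 2 (background 2.21%). The share of genes 2-fold apart depended on depth, from 20.9% of all genes averaging 50 to 100 counts to 2.73% of those from 1000 to 10000. None of the 7 members in that top range was 2-fold apart, and 4 of the 5 lay below a mean count of 300.

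The genes higher in replicate 1 were all Kv1 channels. Kcna7 had 176 and 21 counts, or 1.48 and 0.18 TPM, and was 6.99-fold higher in replicate 1 with a 95% counting interval of 4.44 to 11.6. Kcna1 had 278 and 75 counts and was 3.09-fold higher (2.39 to 4.05), and Kcna6 had 117 and 38 counts and was 2.57-fold higher (1.77 to 3.81). On the log2(TPM + 1) scale Kcna7 kept its call at -1.07, while the differences of Kcna1 and Kcna6 were -0.60 and -0.51, which ends both calls. Kcna7 is known from skeletal muscle and heart, Kcna1 from axons and muscle, and Kcna6 from neurons. Of the 6 Kcna genes with 10 or more counts on average, 5 were higher in replicate 1 under every scaling tried, the exception being Kcna3. The share of all genes higher in replicate 1 was not counted. The median log2 ratio of the 6 was -0.75, beside -0.02 over all genes with that count. The skeletal muscle genes differed in the same direction, as given above, from 2865 to 60.5 summed TPM, and so did Tmem38a. So did the basal and squamous and the brown adipocyte genes given above. Neutrophil genes summed to 126 and 46.3 TPM, with 3 of 5 at least 2-fold higher in replicate 1. Schwann cell genes summed to 57.0 and 42.7 TPM, with none of 4 that far apart. The erythroid, white adipocyte and intestine and pancreas genes went the other way, as given above. Cardiac muscle genes summed to 1155 and 906 TPM with 1 of 8 at least 2-fold apart. The 7 markers of neurons and neuroendocrine cells summed to 8.82 and 9.04 TPM. None of the 3 with a mean count of at least 50 was 2-fold apart. Of the others, Calca (15 and 41 counts) and Chga (13 and 33 counts) were more than 2-fold higher in replicate 2, and Snap25 and Prph were not. Whether any of these tissues or cells had a part in the Kcna difference was not tested.

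The genes higher in replicate 2 were at the edge of the threshold. Kcnk12 had 376 and 639 counts and was 2.04-fold higher (1.79 to 2.32). Kcnh4, an Elk-type channel gene of the brain, had 124 and 215 counts and was 2.08-fold higher (1.66 to 2.61). Just outside, Kcnk1 had 619 and 1008 counts and was 1.95-fold higher (1.76 to 2.16). Scaled by library size alone, the log2 ratios of Kcnk12 and Kcnh4 were 0.89 and 0.91, which ends both calls, and Kcnc4 was called with the Kv1 genes. Under that scaling 100% of the called members were higher in replicate 1, against 60.0% with TMM, and over all genes this share was 77.7% against 66.8%.

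**Figure D3:**
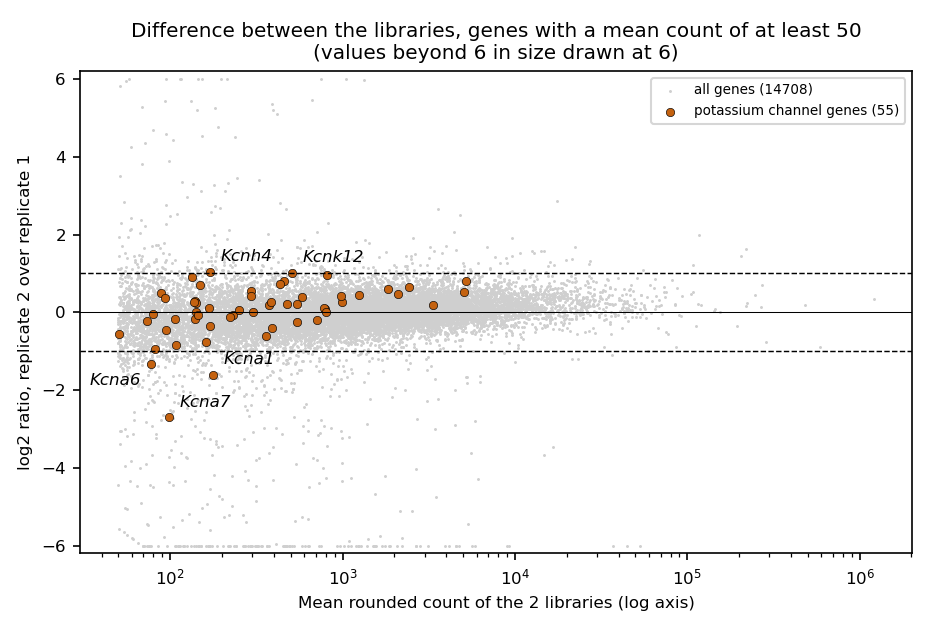
The log2 ratio of replicate 2 over replicate 1 against the mean count (log axis) for all 14708 genes averaging at least 50 counts, in grey, and the 55 potassium channel genes among them, in orange, with dashed lines at a 2-fold difference. Kcna7, Kcna1 and Kcna6 lie below the lower line and Kcnh4 and Kcnk12 on or just above the upper one.

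As a group, the two-pore domain channels were shifted toward replicate 2. Over the 8 that averaged at least 10 counts the median log2 ratio was 0.70, and 7 of 8 were higher in replicate 2. Kcnk7 was the exception with TMM. With library size scaling the median was 0.57 with 6 of 8 higher in replicate 2, and on log2(TPM + 1) it was 0.43 with 7 of 8. Over all 71 members with that count the median was 0.12, beside -0.02 over all genes. Of the 43 detected genes 31 were higher in replicate 2 with TMM, 25 with library size scaling and 21 on the log2(TPM + 1) scale. The median of all genes lay at -0.15 with library size scaling and at -0.16 on log2(TPM + 1). Inward rectifiers had a median of -0.16 with TMM over 10 genes, and on log2(TPM + 1) all 10 were higher in replicate 1. The part of the erythroid, white adipocyte and intestine and pancreas signal, also higher in replicate 2, in the two-pore domain shift was not tested.

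Members below a mean count of 50 numbered 39, and their ratios rest on few counts. Among the 16 that averaged at least 10 counts, 6 were 2-fold apart, beside 29.1% of all genes in that range of counts. Kcnv1, Kcng4 and Kcns1 were higher in replicate 1 (background 19.2%), and Kcnc2, Kcnt1 and Kcne1l in replicate 2 (background 9.90%). Kcnv1, a silent modulator known from brain, had 65 counts in replicate 1 and 1 in replicate 2. Its ratio was 54.2 with a counting interval of 9.40 to 2174.

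Transcript usage was next examined from the deposited shares. Of the 43 detected genes, 15 had a single annotated transcript and 28 had several, whose shares are the quantifier's estimates from shared reads. Among the 13 members with several transcripts and at least 5 TPM in both libraries, 11 had the same leading transcript in both, or 84.6%, beside 85.8% of all protein-coding genes. The exceptions were Kcnh2 and Kcnj15. Kcnh2-202, of 3193 nt, carried 35.3% and 26.9% of the gene's TPM, and the longer Kcnh2-201, of 4221 nt, carried 24.9% and 31.5%. For Kcnj15, the short Kcnj15-210, of 784 nt, led in replicate 1 at 34.8% and stood at 19.1% in replicate 2, where Kcnj15-202 led at 23.3%. Both genes thus had several transcripts at like shares.

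Most of the detected members' TPM lay on transcripts annotated as coding, 92.5% and 91.2%, beside 86.3% and 83.8% over all detected protein-coding genes. Retained introns took 0.899% and 0.732% of the detected members' TPM, beside 7.75% and 9.52% over those genes. Single members departed from this. Kcnmb4 had 45.2% and 38.8% of its TPM on its coding transcript, and 51.5% and 60.5% on Kcnmb4-204, a processed transcript of 517 nt. By expected counts the coding Kcnmb4-201 was ahead, with 190.4 and 225.9 against 57.6 and 93.6. Kcnn2 had 46.4% and 30.2% of its TPM on coding transcripts and 51.5% and 64.2% on retained introns. Kcnh2 had 39.8% and 41.6% on 3 processed transcripts, and Kcnn3 had 34.0% and 22.0% on the retained intron transcript Kcnn3-202.

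Some members differed in their split between the libraries. Kcnk2-203, a transcript annotated for nonsense-mediated decay, carried 23.7% and 9.75% of the TPM of Kcnk2, while the coding Kcnk2-205 carried 32.9% and 56.2%. Kcnip3-201, of 2728 nt, carried 70.2% and 36.1% of the TPM of Kcnip3, and Kcnip3-202, of 1296 nt, carried 29.8% and 63.9%. The leading transcript by TPM thus differed. By expected counts Kcnip3-201 was ahead in both libraries, with 87.1 and 92.9 against 15.9 and 70.9. Kcnma1-216, of the nonsense-mediated decay class, had 42.3% in replicate 1, on 71.8 expected counts, and 0 in replicate 2. These splits have 1 value per library and no test.

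**Figure D4:**
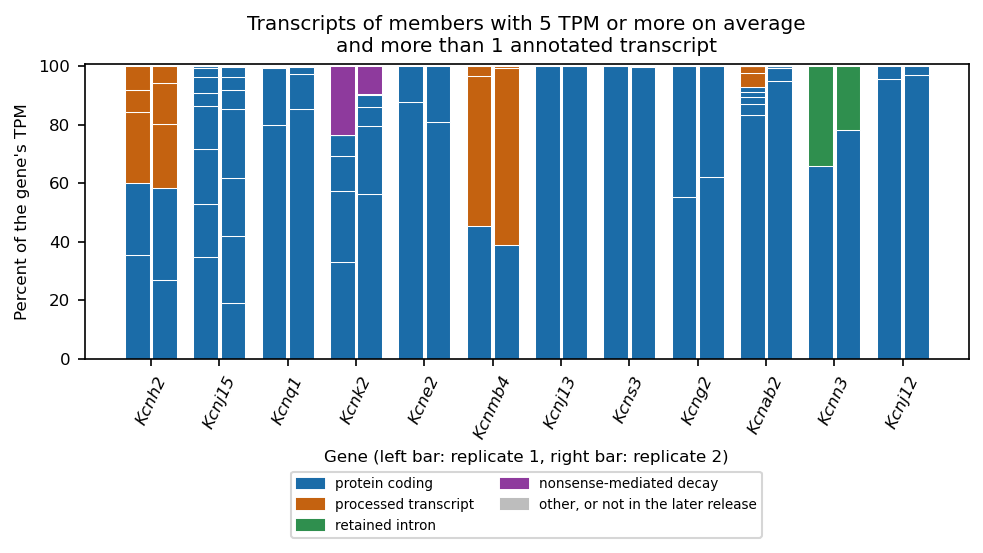
Percent of each gene's TPM on its annotated transcripts, for 12 members with several transcripts and a mean of at least 5 TPM, with replicate 1 as the left bar and replicate 2 as the right bar, and with a white line between transcripts. Kcnmb4 and Kcnh2 have the largest shares on processed transcripts, Kcnk2 is the one with a nonsense-mediated decay share and Kcnn3 the one with a retained intron share.

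The filter codons were then read against these shares. A transcript, coding or not, counted as carrying them if its GENCODE M21 sequence held every filter run of the gene, and transcripts missing from that release counted as lacking them. Of the 33 detected genes with the codons, 20 had several transcripts. In 10 of the 20, at least 95% of the TPM in both libraries lay on transcripts with the codons. For Kcnq1 the share was 80.4% and 87.7%, with most of the rest on Kcnq1-207, a transcript of 282 nt with 12 and 8 expected counts. For Kcnk2 it was 76.3% and 90.0%, and for Kcnn3 66.0% and 78.0%. Kcng2, at 44.6% and 38.0%, was the only gene under 50% in both libraries.

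Several members lie close together in the genome. Within 250 kb there were 11 pairs of neighbouring members, made of 19 genes. Both genes were detected in 1 pair, Kcna3 and Kcna2, which lie 63.1 kb apart on chromosome 3. In 5 pairs neither was detected and in 5 pairs 1 of the pair was. Among all 94 members 45.7% were detected. No such counts were made for other neighbouring genes, so no effect of position is read from these pairs. Kcne2 and Kcne1 lie 47.9 kb apart on opposite strands, at 15.5 and 11.7 TPM against 0.140 and 0.0700 TPM. Kcnj2, at 3.40 and 2.46 TPM, lies 38.2 kb from Kcnj16, which had no count. Kcna1 and Kcna6, both called 2-fold apart, are neighbours on chromosome 6, 61.9 kb apart and on the same strand. Kcna5, next in that cluster, was 1.13-fold higher in replicate 1, with an interval of 0.854 to 1.50.

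Exons of 27 members overlap exons of another gene, for all but 2 of them only on the opposite strand. Overlaps were not counted over all protein-coding genes, so it is not known whether 27 is many or few. Kcnk4 shares 587 bases with Catsperz on the same strand, and Kcnab2 shares 125 bases with Gm16334. Kcnk2 overlaps the antisense gene A430027H14Rik, at 4.46 TPM in replicate 1 and higher in replicate 2, over 604 bases. Kcnq1 shares 121 bases with Kcnq1ot1, the long antisense RNA of its imprinted domain, which had 975 and 616 counts. The libraries are stranded per the labels, but no source used here states whether the counting used the strand, so the split of reads between such pairs is uncertain.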

How the data were processed

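The 2 lung libraries were sequenced from both ends with 76 nt reads that keep the strand, per the labels. Alignment used mm10 and quantification GENCODE M4, per the deposited file lists. Names of the aligner and quantifier are not given in the sources used. The deposited expected counts are estimated fragments per gene or transcript, not normalized. The deposited TPM and FPKM values are adjusted for feature length and sequencing depth, per the file headers; TPM totals include the spike-ins. Transcript shares, in percent of a gene, are deposited by the authors. The authors also deposited bounds of a TPM signal interval, which were not used in the text. Contig and junction lists on mm9 were not used.

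Gene types and symbols came from GENCODE M21 on GRCm38, where 42462 of 43346 identifiers matched. The 97 spike-in rows held 704282 and 461067 counts and 26248 other rows 0 and 2; both were left out. Expected counts were rounded, scaled by TMM in edgeR 4.0.16 (R 4.3.3) over all genes and turned to log2 CPM with a prior count of 2. Folds are count ratios over the scaled sizes with exact Clopper-Pearson 95% intervals, which cover counting error only. A difference of 2-fold needed a mean count of 50, and lists took genes with a mean count of 10. No test was possible with 1 group.

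The members and lists were chosen with earlier results of these data known. Values per library were given by rule for the 20 highest members, the highest of each subfamily, members 2-fold apart and members at 0; all other named genes were picked with values known. The filter was searched as codons, since no protein table was used. A planned check of CpG in promoters was void, because 69 of 94 members (73.4%) had a promoter sequence and 80% were needed. The scripts were tested on simulated data. Alternatives were other thresholds, DESeq2 1.42.0 size factors, library size scaling, TPM with pseudocounts, FPKM, count filters and leaving out either library. A few genes are counted in the totals but not reported here by name.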

Additional observations from a re-analysis of the deposited data

How the results depend on the processing

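The detected count of 43 was 67 with 10 counts in both libraries as the rule, and 45 to 47 with either library alone. The median level of 0.98 was 0.09 with a pseudocount of 0.1, 0.80 from FPKM and 1.44 over members at 0.1 TPM or more, and 0.91 to 1.04 with either library alone. The share of 0.0387% was 0.0807% by expected counts, which are not per length, and 0.0370% to 0.0404% with either library alone. The 5 members 2-fold apart were 1 (Kcna7) on log2(TPM + 1), 8 at a mean count of 20 and 15 with no filter. At a mean count of 100 they were 3 (Kcna1, Kcnh4 and Kcnk12), as Kcna7 and Kcna6 had fewer counts. On log2(TPM + 0.1) they were 7, with Kcna1, Kcna6, Kcna7, Kcnc4, Kcnk7 and Kcnmb2 higher in replicate 1 and Kcnip3 in replicate 2. DESeq2 size factors gave the same 5 genes as TMM. The median log2 ratio of 0.12 turned to -0.01 with library size scaling, -0.09 on log2(TPM + 0.1) and -0.04 on log2(TPM + 1). Of 132 single-gene ratios under other scalings, 113 kept their sign; the 19 that changed it were all of genes less than 2-fold apart. The same leading transcript was found in 23 of 28 members at 1 TPM, beside 8068 of 9512 protein-coding genes. At 10 TPM it was found in 5 of 7, beside 4954 of 5745. With the leading transcript taken by expected counts at 5 TPM, it was found in 10 of 13 members, beside 6583 of 7244 genes. The cause of these shifts was not tested. The CpG alternatives were not run, and ratios need both libraries. No paired analysis was possible because there is 1 group. Members under 50 counts have wide intervals, so most low Kcn genes cannot be compared between the libraries.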
